A study of Mus musculus with 10 samples.

Results

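The genes that remove introns from messenger RNA precursors and form their 3′ ends were described in the livers of *db/db* mice that had received AAV8-Control. Members were chosen by symbol, a rule that uses no measured value but was set with earlier results of these data known. They are the serine and arginine rich splicing factors (*Srsf*), the heterogeneous nuclear ribonucleoproteins (*Hnrnp*), the SF3A and SF3B subunits, the PRPF factors, the genes named *Cpsf* and *Cstf*, the kinases *Clk1* to *Clk4* and *Pcf11*. The 7 *Cpsf* genes are grouped by symbol and include *Cpsf6* and *Cpsf7*, which encode subunits of cleavage factor I and not of CPSF. This gave 69 genes of the 15126 in the deposited table. They comprised 11 *Srsf* genes, 20 *Hnrnp* genes, 9 *Sf3a* and *Sf3b* genes, 13 *Prpf* genes, 7 *Cpsf* genes, 4 *Cstf* genes, 4 *Clk* genes and *Pcf11*. A mean of at least 1 CPM (the reads of a gene scaled to the total counted on genes) was required for inclusion in summaries, and 67 of the 69 members and 11041 of all genes met it.

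The RNA came from livers of male *db/db* mice, which lack a working leptin receptor and become obese and diabetic. The mice were 10 weeks old and had received, 5 weeks earlier, an adeno-associated virus of serotype 8 by tail vein, encoding eGFP (AAV8-Control, n = 5). Every liver described therefore carries both the *db/db* mutation and a viral vector. Of the 10 libraries in the series, the other 5 are not analysed here, so the values are levels and their spread within 1 group, and no test between groups was made. Some labels also describe cultured primary hepatocytes, whereas the study's methods describe liver tissue. The promoter of the vector is not given in the sources used here.

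The 5 libraries held 19499795 to 35498596 reads counted on genes, so that a single read was worth 0.0282 to 0.0513 CPM. The 12 hepatocyte markers together made up 106630 to 143892 CPM, and the 12 Kupffer cell and macrophage markers 219 to 450 CPM. No marker in either list was at 0 in all 5 livers. In such bulk RNA, fewer cells of a type and less RNA per cell cannot be told apart.

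Splicing is carried out by the spliceosome, which assembles on each intron from small nuclear ribonucleoproteins and many protein factors. SR proteins bind exons and promote the use of nearby splice sites, hnRNPs bind the transcript widely and often act against them, and the CLK kinases phosphorylate SR proteins. At the end of a gene, CPSF recognises the polyadenylation signal and cuts the transcript, CstF binds downstream of the cut, and PCF11 links cleavage to the release of RNA polymerase II. Many of these genes adjust their own expression through unproductive splicing. In the GENCODE M21 annotation, 35 of the 67 members (52.2%) have a transcript marked for nonsense-mediated decay, against 29.3% of all genes at or above 1 CPM. A transcript with a retained intron is annotated for 50 of the 67 (74.6%), against 60.5%. The gene-level values used here do not separate such transcripts.

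The splicing and 3′ end processing genes were expressed over a wide range. Divided by exon length, their median level was 4.33 CPM per kb, against 3.24 CPM per kb for all genes, and 41 of the 67 (61.2%) lay above that median of all genes. Per kb of exon, the highest mean levels were those of *Hnrnpa2b1* (32.7 CPM per kb), *Hnrnpab* (26.3), *Prpf8* (23.1), *Srsf5* (21.8), *Prpf19* (18.4) and *Srsf2* (17.7). *Hnrnpa2b1* stood at percentile 90.4 of all genes. The lowest were those of *Hnrnpa1* (0.502 CPM per kb), *Hnrnpr* (0.677) and *Prpf39* (0.995). By family, the median level was 6.17 CPM per kb for the hnRNPs, 5.81 for SF3A and SF3B, 5.41 for the SR proteins, 3.89 for the PRPF factors, 3.53 for the *Cpsf* genes, 3.41 for the CLK kinases and 2.85 for CstF. The ranges of the families overlapped. Together the members made up 2410 ± 52.7 CPM (SD, n = 5), of which the 20 hnRNP genes made up 919.5 ± 25.2 CPM.

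**Figure D1:**
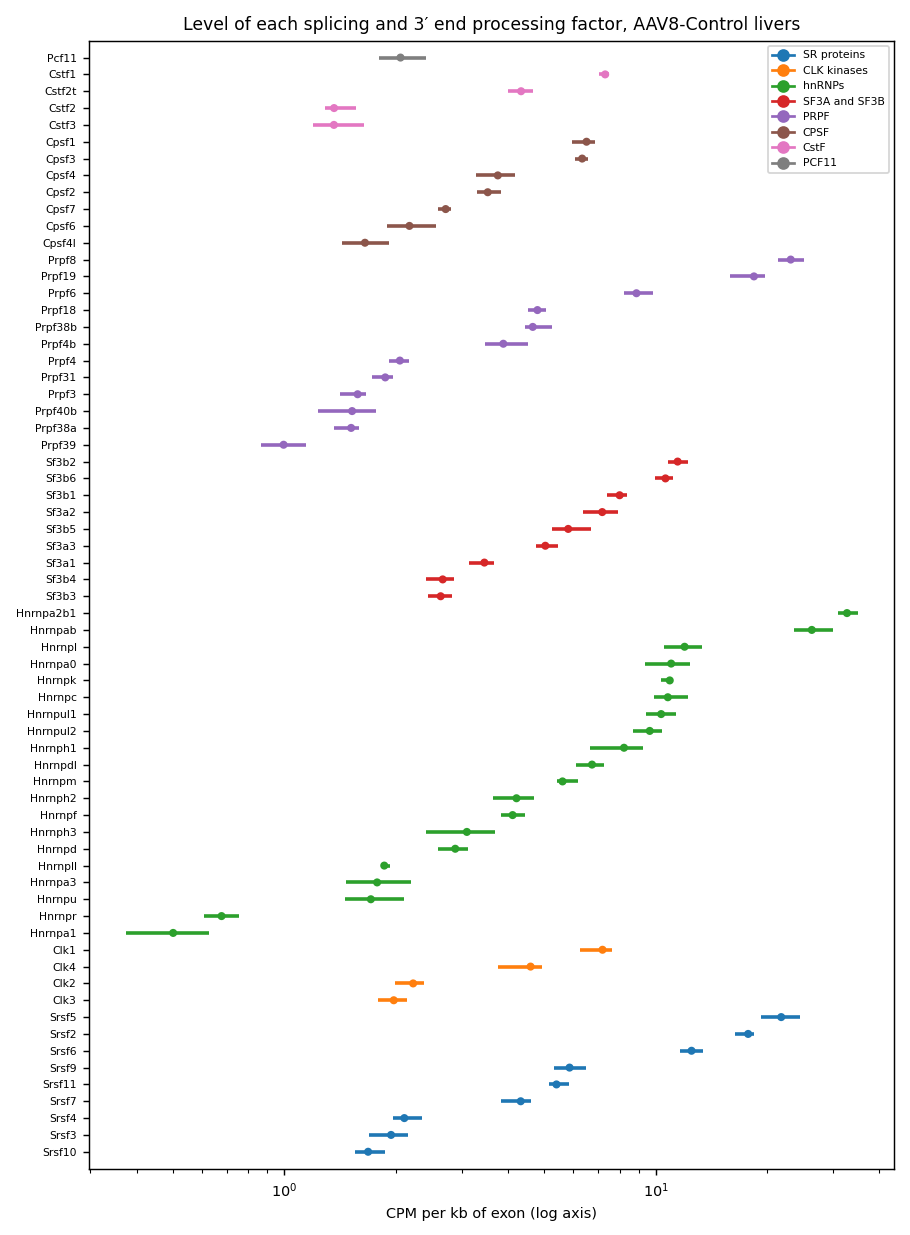
Mean level of 66 of the 67 members over the 5 AAV8-Control livers (points), with the lowest and highest liver (lines), in CPM per kb of exon on a log axis, coloured by family. *Hnrnpa2b1* (32.7) and *Hnrnpa1* (0.502) mark the ends of the range.

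The level of some members is uncertain because of shared or overlapping sequence. Only uniquely placed reads had been counted, and 28.2% of the 50-base stretches in *Hnrnpa1* transcripts also occur in transcripts of other genes, 19 of them pseudogenes. The same holds for 61.9% of the stretches of *Hnrnpf*, 45.3% of *Sf3b4* and 27.1% of *Hnrnpa3*. Exons also overlap a gene on the opposite strand for 29.1% of the bases of *Hnrnpab* (*Phykpl*), 25.3% of *Srsf2* (*Mettl23*) and 43.0% of *Srsf4*, and the libraries do not record strand. As reads that fit more than 1 gene were left uncounted, such stretches add little or nothing to either gene, so these levels may be too low. *Srsf1*, a founding SR protein, was nearly unread, with 2, 1, 5, 2 and 1 reads in replicates 1 to 5. The other *Srsf* genes at or above 1 CPM had 154 to 3347 reads in the same libraries, and 0.882% of the 50-base stretches of *Srsf1* are shared with other genes. Why so few reads were counted on *Srsf1* was not found, and the value is not shown to be its true level. *Srsf12* had 0, 0, 2, 1 and 0 reads, and in the 3 livers at 0 this allows a level of up to 0.154, 0.144 and 0.145 CPM, the worth of 3 reads in replicates 1, 2 and 5, for counting error only.

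Promoters were described as a feature the choice of members had not used. Of the 69 members, 61 have promoter windows in the RefSeq table (GRCm38.p6), 79 windows among 32851, each reaching from 250 bases before a start to 50 after it. CpG dinucleotides were frequent in the members' windows, with a median of 27 against 7 for all windows. The letters GGGCGG, the core of the SP1 site, occurred on either strand in 69.6% of the members' windows and in 35.7% of all. CCGGAAG, an ETS factor motif, occurred in 32.9% and 8.86%, CCAAT in 45.6% and 37.4%, GCGCATGC, the core of the NRF1 motif, in 5.06% and 2.71%, and TATAAA in 6.33% and 13.6%. The windows of all genes (27025 genes) were not limited to genes at or above 1 CPM. Whether these differences hold against genes expressed in liver was not tested. The 250 bases before the start are given for the 3 members with the highest level per kb, 5′ to 3′ on the strand of the gene. Capitals mark the motifs above on either strand. These are chr6:51469895-51470144 (reverse strand) for *Hnrnpa2b1*, chr11:51606882-51607131 (reverse strand) for *Hnrnpab* and chr11:75486527-75486776 (forward strand) for *Prpf8*.
Hnrnpa2b1: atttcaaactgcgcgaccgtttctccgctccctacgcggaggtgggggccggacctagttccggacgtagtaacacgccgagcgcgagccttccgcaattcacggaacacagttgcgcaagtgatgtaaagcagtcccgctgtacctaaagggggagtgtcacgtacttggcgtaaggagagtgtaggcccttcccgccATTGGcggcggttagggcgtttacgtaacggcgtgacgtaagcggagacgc
Hnrnpab: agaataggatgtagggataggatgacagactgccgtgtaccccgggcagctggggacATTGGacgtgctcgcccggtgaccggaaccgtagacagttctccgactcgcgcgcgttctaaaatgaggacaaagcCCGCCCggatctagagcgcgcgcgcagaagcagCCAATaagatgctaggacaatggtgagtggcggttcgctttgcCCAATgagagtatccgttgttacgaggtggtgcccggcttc
Prpf8: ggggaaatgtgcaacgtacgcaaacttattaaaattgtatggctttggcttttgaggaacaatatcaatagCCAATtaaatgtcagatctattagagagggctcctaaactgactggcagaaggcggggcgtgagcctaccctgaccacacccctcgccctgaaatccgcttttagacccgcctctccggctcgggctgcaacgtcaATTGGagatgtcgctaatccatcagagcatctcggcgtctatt
The *Hnrnpab* stretch holds CCAAT 3 times and GGGCGG 1 time, *Prpf8* holds CCAAT 2 times, and *Hnrnpa2b1* holds it 1 time. CCGGAAG, GCGCATGC and TATAAA are in none of the 3 stretches. CpG dinucleotides number 29 in *Hnrnpa2b1*, 23 in *Hnrnpab* and 13 in *Prpf8*.

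Most members varied little between livers. Their median coefficient of variation (SD over mean) was 7.38%, against 10.6% for all genes, and 50 of 67 (74.6%) were under 10%, against 46.8% of all genes. Counting alone gives a median of 4.43% for the members and 5.19% for all genes. The members also lay at higher levels than the median gene, and the part of level in this difference was not tested. By family the median coefficient of variation was 5.29% for SF3A and SF3B, 5.60% for the *Cpsf* genes, 7.09% for the PRPF factors, 7.30% for the SR proteins, 7.32% for CstF, 7.61% for the CLK kinases and 9.24% for the hnRNPs. This order depended on the scaling, since with TMM factors (a scaling by the trimmed mean of log ratios between libraries) CstF was lowest (4.94%), SF3A and SF3B were at 7.36% and the CLK kinases were highest of these families (10.2%). The members remained less variable than all genes with TMM factors, at 7.58% against 10.1%. *Cstf1* (2.25%) and *Hnrnpll* (2.27%) were the least variable members, both under what counting alone gives for them (4.07% and 4.43%), and with TMM factors *Sf3b2* was (2.45%). The most variable were *Hnrnpa1* (22.8%, with 16.9% from counting), *Hnrnph3* (17.4% and 6.66%), *Hnrnpu* (16.9% and 4.68%) and *Hnrnpa3* (15.7% and 6.76%).

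**Figure D2:**
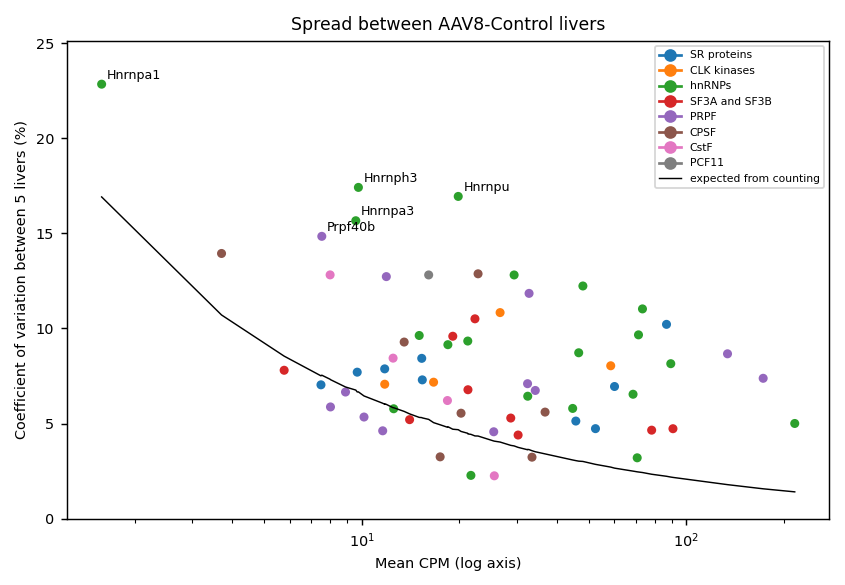
Coefficient of variation between the 5 AAV8-Control livers against mean CPM (log axis) for 66 of the 67 members, coloured by family, with the value that counting alone would give (black line). *Hnrnpa1* (22.8%), *Hnrnph3* (17.4%) and *Hnrnpu* (16.9%) stand highest.

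Among the SR proteins, *Srsf5* (ENSMUSG00000021134, chr12:80945504-80950507, forward strand, GRCm38) was the most abundant. It was at 85.6, 97.4, 94.3, 80.6 and 76.5 CPM in replicates 1 to 5, a mean of 86.8 ± 8.87 CPM (SD, n = 5). Replicates 2 and 3 were high and replicate 5 was lowest. *Srsf6* was at 64.2, 55.9, 56.1, 59.5 and 64.5 CPM, with replicates 2 and 3 lowest instead. *Srsf2*, which binds exonic enhancers, was at 52.5 ± 2.48 CPM and *Srsf11* at 45.7 ± 2.34 CPM. *Srsf3*, a regulator of splicing and RNA export, was at 15.3 ± 1.29 CPM and *Srsf7* at 15.4 ± 1.12 CPM. The remaining members of the family that reached 1 CPM lay between 7.49 CPM (*Srsf4*) and 11.8 CPM (*Srsf10*).

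Of the CLK kinases, *Clk1* was the most abundant, at 50.8, 60.2, 57.3, 61.9 and 62.2 CPM. *Clk4* was at 21.8, 28.6, 26.4, 28.7 and 27.9 CPM. Both were lowest in replicate 1, as was *Clk2*, which was at 10.5, 12.6, 11.9, 12.4 and 11.5 CPM. The 7 immediate early genes, which respond to handling and stress, summed to 46.8 to 112 CPM over the 5 livers, and their part in these levels was not tested. *Clk3* was at 15.9, 16.6, 15.1, 17.5 and 18.1 CPM, with replicates 1 and 3 lowest, and 15.2% of its exon bases overlap *Edc3* on the opposite strand. Per kb the order was *Clk1* (7.19), *Clk4* (4.60), *Clk2* (2.22) and *Clk3* (1.97).

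Among the hnRNPs, *Hnrnpa2b1* (ENSMUSG00000004980, chr6:51460932-51469894, reverse strand) was the most abundant member of all. It was at 204, 207, 214, 222 and 231 CPM, a mean of 216 ± 10.8 CPM. *Hnrnpab* was at 83.7, 65.7, 80.0, 67.5 and 69.2 CPM, with replicates 1 and 3 above the others. *Hnrnpl* (79.3, 68.8, 77.0, 62.5 and 68.3 CPM) and *Hnrnpul1* (98.3, 88.1, 95.7, 81.2 and 84.3 CPM) were likewise highest in replicates 1 and 3. *Hnrnpu*, a large nuclear RNA and DNA binding protein, was at 18.7, 16.9, 17.0, 24.4 and 22.2 CPM, *Hnrnph3* at 10.1, 7.61, 8.48, 11.1 and 11.6 CPM, and *Hnrnpa3* at 7.90, 8.76, 9.24, 11.8 and 10.2 CPM. All 3 were highest in replicates 4 and 5. *Hnrnpk*, by contrast, kept to 66.7 to 72.2 CPM, and *Hnrnpll*, known as a regulator of alternative splicing in lymphocytes, to 21.3 to 22.5 CPM. These ranges widened with TMM factors, to 63.4 to 74.0 CPM for *Hnrnpk* and 20.4 to 22.6 CPM for *Hnrnpll*. *Hnrnpa1* had 23, 28, 69, 40 and 41 reads, a mean of 1.58 ± 0.361 CPM.

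The subunits of SF3A and SF3B hold the U2 particle at the branch point. *Sf3b1*, the largest subunit, was at 84.2, 91.6, 89.8, 95.0 and 94.1 CPM, and *Sf3b2* at 83.5, 73.7, 79.2, 76.6 and 77.8 CPM. Replicate 1 had the lowest *Sf3b1*. It also had the highest *Sf3b2*, but with TMM factors replicate 3 did (79.8 against 79.4 CPM). Per kb, *Sf3b2* (11.5 CPM per kb) and *Sf3b6* (10.6), the small subunit that contacts the branch point adenosine, led the family. *Sf3b3* had the lowest level per kb (2.64), close to *Sf3b4* (2.67). *Sf3b5* varied most, at 22.3 ± 2.35 CPM.

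Of the PRPF factors, *Prpf8* (ENSMUSG00000020850, chr11:75486816-75509449, forward strand), the core scaffold of the catalytic centre, was the most abundant at 187, 160, 159, 173 and 183 CPM. Replicates 2 and 3 were lowest. *Prpf19*, a ubiquitin ligase of the spliceosome, followed at 132, 135, 143, 115 and 144 CPM, with replicate 4 below the rest. *Prpf4b*, a kinase of the tri-snRNP, was at 29.3, 29.2, 32.0, 35.2 and 38.1 CPM, highest in replicates 4 and 5. *Prpf40b*, related to a yeast U1 factor, was the most variable of the family, at 8.72, 8.57, 6.87, 7.44 and 6.09 CPM. With TMM factors *Prpf39* was instead, with a coefficient of variation of 14.7% against 14.0% for *Prpf40b*. *Prpf6* was at 34.2 ± 2.31 CPM and *Prpf38a* at 8.02 ± 0.471 CPM.

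In the 3′ end machinery, *Cpsf1*, the largest CPSF subunit, was at 36.7 ± 2.06 CPM and *Cpsf3*, the nuclease that makes the cut, at 33.5 ± 1.08 CPM. *Cpsf2* was at 20.2 ± 1.12 CPM. *Cpsf6*, a subunit of cleavage factor I that influences which polyadenylation site is used, was at 19.8, 21.5, 21.04, 24.9 and 26.9 CPM, again highest in replicates 4 and 5. *Cpsf7*, the other large subunit of that factor, kept to 16.6 to 18.0 CPM. *Cpsf4*, a zinc finger subunit that binds the polyadenylation signal, was at 13.5 ± 1.25 CPM. *Cstf1* was the most abundant CstF gene at 25.6 ± 0.576 CPM, ahead of *Cstf2t* (18.4 ± 1.14 CPM), *Cstf2* (12.5 ± 1.05 CPM) and *Cstf3* (8.00 ± 1.02 CPM). *Pcf11* (ENSMUSG00000041328, chr7:92643543-92669934, reverse strand) was at 14.1, 14.1, 18.9, 16.1 and 17.3 CPM. Its coefficient of variation of 12.8% exceeded the 5.22% that counting gives, and 4.82% of its exon bases overlap a transcript on the opposite strand.

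The livers differed modestly in these genes as a set. The number of members above their own mean was 29, 28, 29, 35 and 42 of 67 in replicates 1 to 5 (43.3%, 41.8%, 43.3%, 52.2% and 62.7%). For all genes the shares were 67.1%, 41.8%, 47.4%, 40.5% and 51.8%. The members and the other genes stood farthest apart in replicate 1, which was the lowest liver for 25 members (37.3%) and for 12.1% of all genes, and the highest for 16 members (23.9%) and for 37.8% of all genes. Replicate 5 was the highest for 22 members (32.8%) and for 17.8% of all genes, and the lowest for 4 members (5.97%) and for 15.4%. On the log2 scale the median deviation in replicate 1 was -0.02 for the members and 0.06 for all genes, and in replicate 5 it was 0.05 and 0.0045. These counts depended on the scaling. With TMM factors, which bring the medians of all genes to between -0.0024 and 0.0045, the members above their own mean were 18, 38, 32, 44 and 42 in replicates 1 to 5, and replicate 1 was the lowest liver for 33 members (23.9% of all genes) and the highest for 2 (23.04%).

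**Figure D3:**
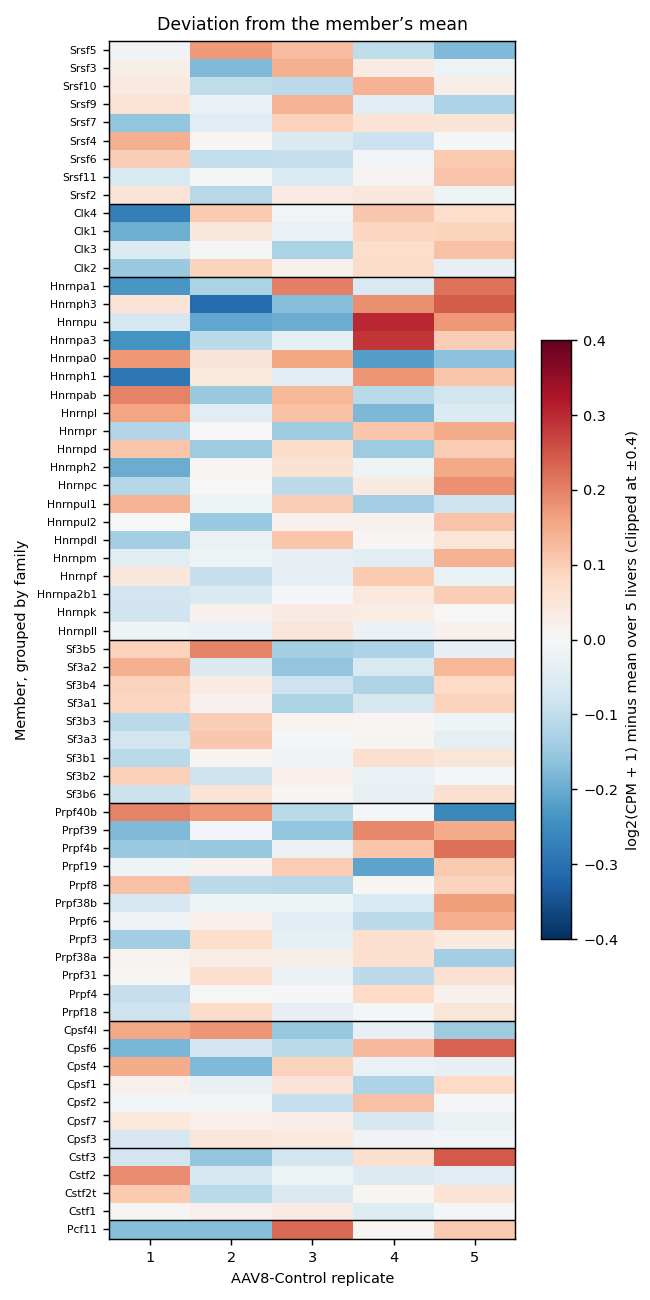
Deviation of 66 of the 67 members from their own means over the 5 AAV8-Control livers, as log2(CPM + 1), with red above and blue below the mean and colours clipped at 0.4. *Hnrnpu*, *Hnrnph3* and *Hnrnpa3* are highest in replicates 4 and 5. Of all 67 members, 42 are above their mean in replicate 5 (51.8% of all genes) and 29 in replicate 1 (67.1% of all genes). With TMM factors these counts were 42 and 18.

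The other genes of the pathway were read from 10 lists holding 180 genes, of which 171 reached 1 CPM. Their median level was 3.45 CPM per kb and their median coefficient of variation 8.39%, beside 4.33 CPM per kb and 7.38% for the members. Among the lists the highest median level was that of the U2 and branch site factors (15 genes, 4.95 CPM per kb). The lowest was that of the SR-related proteins and SR protein kinases (29 genes, 2.92 CPM per kb). This list nevertheless held *Srrm2*, a scaffold of nuclear speckles, at 13.1 CPM per kb (168 ± 9.37 CPM), and *Rsrp1* at 56.8 CPM per kb (190 ± 21.5 CPM). *Pcbp1*, a poly(C) binding protein among the other splicing regulators, had the highest level per kb of all 171 (81.7 CPM per kb, 150 ± 8.48 CPM). *Rsrp1* followed at 56.8 CPM per kb. In each of the remaining lists the gene with the highest level per kb was *Cwc15* of the Prp19 list (26.8 CPM per kb), *Magoh* of the exon junction complex (18.6), *Lsm4* of the Sm and LSm core (16.8), *Sf1*, which binds the branch point (13.8), *Lsm10* of the cleavage list (13.3), *Upf1*, the helicase of nonsense-mediated decay (10.2), *Usp39* of the tri-snRNP (8.85) and *Snrpa* of the U1 particle (6.28).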

How the data were processed

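Liver RNA of *db/db* mice was selected for poly-A and sequenced without strand information. The authors aligned single reads with STAR 2.0.4b to Ensembl's GRCm38.p2 and counted unique reads on genes with featureCounts 1.4.5. The authors deposited CPM (reads scaled to the library's total) for 15126 protein-coding genes in 15236 lines, 110 of which repeat a gene, and the CPM step is not given in the sources used here. CPM is not corrected for gene length, so levels were divided by exon length where genes are compared. That length is all exon bases of any GENCODE M21 transcript of the gene. Dividing by the CPM of 1 read gave whole reads for 100% of values (within 0.01 read). Only the 5 AAV8-Control libraries were used. A planned comparison between groups, with its tests, and the values of 1 member are not reported here. Spread is the SD over 5 livers, as a percentage of the mean or on log2(CPM + 1), and the spread from counting is the root mean square of the relative Poisson errors.

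Members and lists were chosen with earlier results of these data known. The most abundant gene of each family, the *Clk* genes and *Pcf11* were named by a rule, and other genes were named after values were seen. Markers of other cells summed to 284 to 390 CPM (stellate), 156 to 304 (sinusoidal endothelial), 34.2 to 54.7 (cholangiocyte), 10.7 to 11.5 (cycling), 262 to 327 (red blood cell) and at most 4.67 (T and NK, B cell and neutrophil). Alternatives were a pseudocount of 0.1, other filters, TMM (edgeR 4.0.16) and DESeq2 1.42.0 size factors on the recovered reads (R 4.3.3), removal of the mitochondrial genes and of single libraries. No library was a duplicate, as every pair differed by a chi-square of 15.9 or more per degree of freedom. The study's methods describe RNA from snap-frozen livers, but batches and the order of processing are not given in the sources used here, so the spread may be partly technical. Counting error is largest for *Srsf1*, *Srsf12* and *Hnrnpa1*.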

Additional observations from a re-analysis of the deposited data

How the results depend on the processing

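The alternatives for the AAV8-Control livers were chosen after seeing the data. The number of members at or above the limit was 67 in all of them except with no limit, where all 69 were kept. The median level of the members was 4.33 CPM per kb, and 4.86 CPM per kb with mitochondrial genes left out, which raises every other gene by construction. With each library left out by turns it was 4.26 to 4.37 CPM per kb. The median SD between livers on the log2 scale was 0.1001 for the members and 0.137 for all genes. With a library left out these were 0.0948 to 0.105 and 0.122 to 0.141. With TMM scaling they were 0.108 and 0.132, and with DESeq2's size factors 0.106 and 0.132, so the members had the smaller value under each of these. TMM scaling changed the number of members above their own mean in replicate 1 from 29 to 18, and in replicates 2 to 5 from 28, 29, 35 and 42 to 38, 32, 44 and 42. *Srsf1* and *Srsf12* lie at a few reads, so their levels are imprecise, and the cause of the low *Srsf1* count was not tested. For the values given, no paired analysis was possible because they come from 1 group. The design of the series would allow an unpaired comparison between groups, as the labels pair no samples, and it was left out by choice.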
